A study of Mus musculus with 6 samples.

Results

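Collagen chain genes were followed in mouse retina after injection of the compound SH-42 or SH-80 into the eye. They were found by symbol, as Col, a number, a and a number. There were 42 of them among 32496 genes and unnamed accessions on the array, read by 61 of 39429 probes. The scanner files carry no gene symbol, so each probe's accession was named through a RefSeq table, and the brightest probe stood for a gene with several. Col6a3 and Col12a1 had no probe under their RefSeq accessions and were not analysed here. A gene was measured if its probe was well above background in Cy3 or Cy5 on at least 3 of the 6 arrays. By this, 38 of the 42 were measured: 11 of 11 fibrillar collagens, 8 of 8 collagens of basement membranes and 19 of 23 other collagens. Col6a5, Col6a6, Col13a1 and Col28a1 were too dim.

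The mice were adult C57BL/6 males, 12 per group, and the right eye received 1 µM SH-42, 1 µM SH-80 or phosphate-buffered saline (PBS, the control) in the vitreous. Retinas were collected on day 7, and 4 were pooled per tube. Each of 3 arrays for SH-42 and 3 for SH-80 carried, by its labels, compound RNA in Cy3 and control RNA in Cy5, with no dye exchange. At 12 mice per group there would be 3 control pools for 6 arrays, and the labels do not say whether pools were shared, so the p-values below may measure partly technical spread. The compounds are known here only by their codes.

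Every collagen is built of alpha chains that wind around each other into a helix with glycine at regular intervals. Fibrillar collagens line up into the fibrils of sclera, cornea, vessel walls and vitreous. Type IV chains join into the sheet that underlies vessel endothelium, pigment epithelium and the inner surface of the retina. Other collagens decorate fibrils, form open networks, anchor epithelia or span the cell membrane. Neurons of the retina are not known as the main source of type I or type III collagen, which is made chiefly by fibroblasts and related cells.

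Ratios are given on the log2 scale with Cy3 on top and Cy5 below, which the labels make compound over control. The study's deposited value table runs the opposite way, with Cy5 on top. Which way the compounds moved RNA against control is thus unsettled, and higher or lower here compares Cy3 with Cy5. Retinal marker genes, 8 of 8, were well above background in both channels on all 6 arrays. Across all genes, SH-42 replicate 1 stood apart: Pearson's r of its ratios with each other array was -0.155 to 0.164, whereas it was 0.471 to 0.867 for the remaining pairs. SH-42 replicates 1 and 2 lay on slide 1, and SH-42 replicate 3 and all SH-80 arrays on slide 2.

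Collagen RNA differed between arrays almost wholly in Cy5, the channel labelled control. For the 38 collagens the SD over the 6 arrays had a median of 0.0770 (log2) in Cy3 and 0.445 in Cy5, against 0.0682 and 0.142 for all 24079 genes. Cy5 was the wider channel for 35 of the 38, as it was for 78.6% of all genes. The exceptions were Col6a4, Col15a1 and Col19a1. Levels spanned over 1 log2 unit in Cy3 for 0 of the 38, against 0.507% of all genes, and in Cy5 for 23 of the 38 (60.5%), against 11.5%. The span in Cy3 was at most 0.637, in Col15a1, and that in Cy5 reached 4.75, in Col1a1. Whether each channel held the RNA its label names was not tested.

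**Figure D1:**
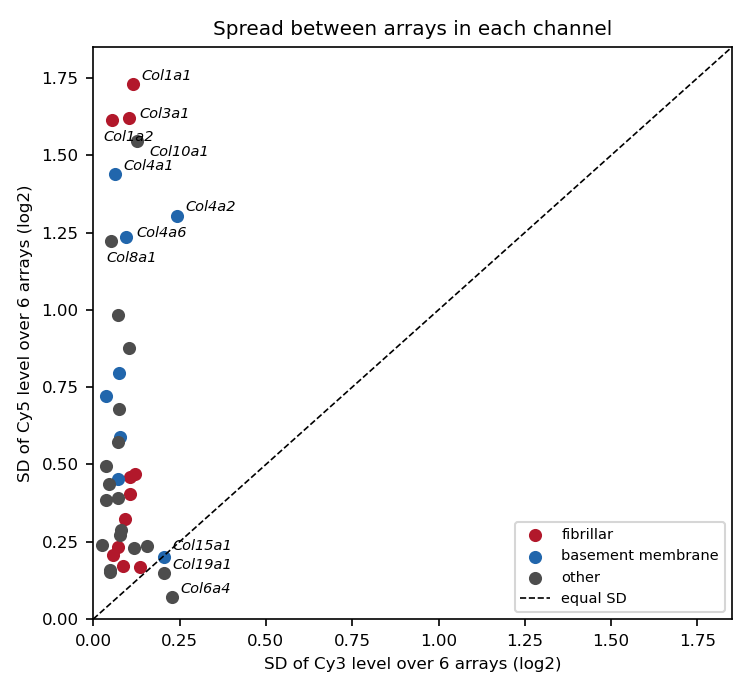
Each point is 1 of 38 collagen genes, with the SD of its Cy3 level over the 6 arrays on the horizontal axis and that of its Cy5 level on the vertical axis, both in log2 units and on equal scales. Nearly all points lie above the dashed line of equal SD, and Cy5 was the wider channel in 35 genes, with Col6a4, Col15a1 and Col19a1 as the exceptions.

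Several genes varied widely and had their lowest ratio on SH-42 replicate 1, and not all of them are shown, Col10a1 for instance. The upstream sequences of Col1a2, Col3a1, Col8a1 and Col8a2 are given as examples. They are the 250 bases before the annotated RefSeq start (GRCm38.p6), 5′ to 3′ on the gene's strand. Capitals mark matches to the motif GGGCGG, known as the GC box. They also mark the motif CCAAT, bound by NF-Y. They mark the motif TATAAA of many core promoters as well. The search covered both strands, a match on the opposite strand is printed as its reverse complement, and overlapping matches were counted apart.
Col1a2, chr6:4505368-4505617, plus strand: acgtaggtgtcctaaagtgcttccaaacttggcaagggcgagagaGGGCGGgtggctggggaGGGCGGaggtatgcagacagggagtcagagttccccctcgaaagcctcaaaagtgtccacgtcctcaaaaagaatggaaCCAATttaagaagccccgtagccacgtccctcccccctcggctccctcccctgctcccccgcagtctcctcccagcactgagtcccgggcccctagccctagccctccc
Col3a1, chr1:45311288-45311537, plus strand: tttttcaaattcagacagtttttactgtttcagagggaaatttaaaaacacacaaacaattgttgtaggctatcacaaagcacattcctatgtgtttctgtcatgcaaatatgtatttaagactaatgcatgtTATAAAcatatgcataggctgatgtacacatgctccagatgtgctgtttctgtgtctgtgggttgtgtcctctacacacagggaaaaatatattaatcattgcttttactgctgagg
Col8a1, chr16:57754738-57754987, minus strand: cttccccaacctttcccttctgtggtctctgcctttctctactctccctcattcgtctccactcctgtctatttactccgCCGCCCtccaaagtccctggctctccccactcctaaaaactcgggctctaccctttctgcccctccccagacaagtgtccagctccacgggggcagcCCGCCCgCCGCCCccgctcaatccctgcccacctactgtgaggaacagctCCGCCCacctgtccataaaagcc
Col8a2, chr4:126286544-126286793, plus strand: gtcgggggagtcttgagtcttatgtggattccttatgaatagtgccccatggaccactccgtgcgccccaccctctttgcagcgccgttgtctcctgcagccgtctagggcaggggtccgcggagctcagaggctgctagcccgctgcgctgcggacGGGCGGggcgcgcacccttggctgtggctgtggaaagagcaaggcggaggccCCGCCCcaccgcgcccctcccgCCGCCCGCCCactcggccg

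Both chains of type VIII collagen, Col8a1 and Col8a2, had 4 GGGCGG matches each, whereas Col3a1 had 0 and 1 TATAAA match, 117 bases before its start. Col10a1, whose window is not shown, also had 0 GGGCGG matches and 1 TATAAA match, 32 bases before its start. In the 37 collagen windows of 34 genes, GGGCGG stood in 59.5%, against 32.7% of all 32851 windows of the table. CCAAT stood in 35.1%, against 33.8%, and TATAAA in 13.5%, against 12.4%. The collagen windows had a median GC content of 59.2%, against 52.4%. These are matches of letters and not binding sites.

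Among fibrillar collagens, types I and III were far higher in Cy5 than in Cy3 on SH-42 replicate 1 and mostly lower in Cy5 on the others. Col1a1 encodes the major chain of type I collagen, the bulk fibril of sclera and tendon. Its log2 ratios were -2.87, 0.52 and 1.78 on SH-42 replicates 1, 2 and 3, and 1.31, 0.055 and 1.37 on SH-80 replicates 1, 2 and 3. Its Cy3 level stayed between 9.32 and 9.63, while Cy5 was 12.50, 8.80 and 7.76 on the SH-42 arrays and 8.32, 9.49 and 8.22 on the SH-80 arrays. SH-42 replicate 1 thus stood far above the other 5 arrays in Cy5, and the ratios of the compounds overlapped.

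Col1a2, the partner chain of Col1a1 in type I collagen, had ratios of -2.85, 0.24 and 0.55 on the SH-42 arrays and 1.48, -0.31 and 1.38 on the SH-80 arrays. Its Cy3 level was 10.86 to 10.99 on all arrays, and its Cy5 level was 13.84 on SH-42 replicate 1 and 9.46 to 11.20 on the rest. Col3a1, which encodes the type III collagen of vessel walls and wounds, had ratios of -2.78, 0.015 and 1.27 for SH-42 and 1.12, -1.03 and 0.68 for SH-80. In Col3a1, SH-80 replicate 2 was the second array with more signal in Cy5, which reached 9.69 there against 11.31 on SH-42 replicate 1. These type I and type III genes therefore shared 1 array at the low end and did not separate the compounds.

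Type V collagen sits inside type I fibrils and sets their width. Col5a1, its major chain, had ratios of -1.23, -0.066 and 0.083 for SH-42 and 0.12, -0.076 and 0.044 for SH-80. Col5a3, a minor chain, had -1.004, -0.056 and 0.20 for SH-42 and -0.011, -0.11 and 0.0003 for SH-80. Both lay near 0 on every array other than SH-42 replicate 1. Col2a1, the main fibril collagen of vitreous and cartilage, had -0.52, -0.015 and -0.09 for SH-42 and -0.14, -0.34 and -0.57 for SH-80. It was below 0 on all 6 arrays, yet no further than 0.57. Col5a2 was not well above background in Cy3 on any array. Its Cy5 level was 8.02 on SH-42 replicate 1, the only SH-42 array on which it was well above background, against 6.84 and 6.80 on SH-42 replicates 2 and 3, and 7.01, 6.96 and 7.42 on the SH-80 arrays. Over the SH-42 arrays Cy3 was at least 1.09-fold lower than Cy5 (limma adjusted p = 0.314), and without SH-42 replicate 1 no bound remained. Such bounds set the mean of the brighter channel against the lowest signal counted as well above background. The other fibrillar genes, Col11a1, Col11a2, Col24a1 and Col27a1, had ratios between -0.82 and 0.45. On the SH-80 arrays Col24a1 was not well above background in Cy3, which was at least 1.11-fold lower than Cy5 (limma adjusted p = 0.195).

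For SH-42 against control, 0 of the 11 fibrillar genes passed the threshold of limma's moderated test (adjusted p under 0.05 over all 24079 genes, fit to all 6 arrays), against 0.602% of all genes. For SH-80 it was 0 of 11 against 14.7%. At an unadjusted p under 0.05 there was 1 of 11 for each compound, Col27a1 for SH-42 and Col2a1 for SH-80, beside 23.5% and 35.5% of all genes. The estimates of Col1a1 were -0.19 ± 0.82 for SH-42 and 0.91 ± 0.82 for SH-80 (SE, n = 3 arrays each), with adjusted p of 0.898 and 0.465 in limma. Those of Col1a2 were -0.69 ± 0.69 and 0.85 ± 0.69, with limma adjusted p of 0.555 and 0.421. The 95% interval for Col1a1 in SH-80 ran from -1.08 to 2.90. It held lower Cy3, no change and several-fold higher Cy3, so these arrays could not tell them apart. The median estimate of the 11 was -0.29 for SH-42 and -0.040 for SH-80, beside -0.034 and -0.031 over all genes.

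**Figure D2:**
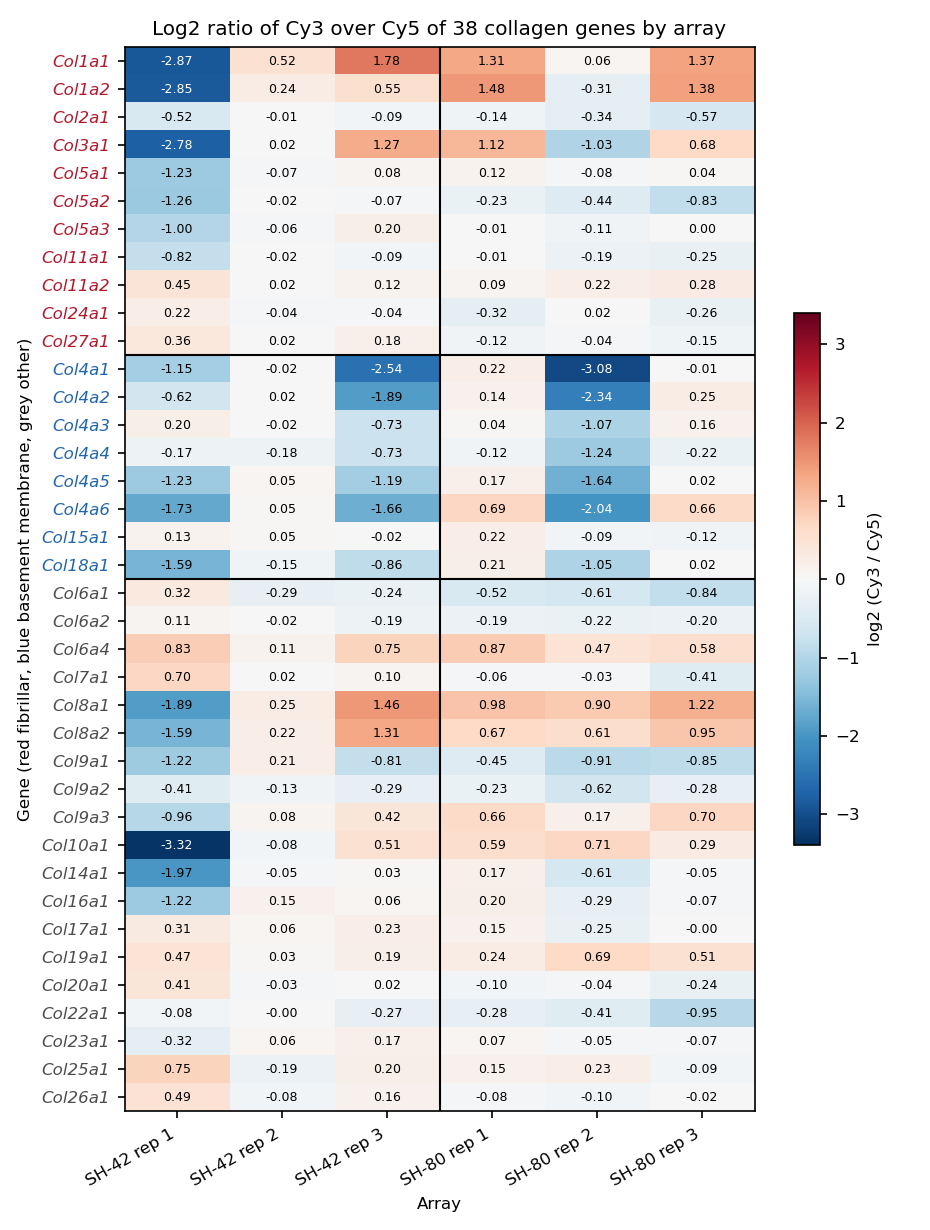
Log2 ratio of Cy3 over Cy5 of the 38 measured collagen genes (rows) on the 3 SH-42 and 3 SH-80 arrays (columns), with the value in each cell and colour from blue (below 0) to red (above 0). Fibrillar genes such as Col1a1 were lowest on SH-42 replicate 1 (-2.87), while type IV chains such as Col4a1 were lowest on SH-80 replicate 2 (-3.08) and SH-42 replicate 3 (-2.54). Col5a2 and Col14a1 on all arrays, and Col15a1 and Col24a1 on the SH-80 arrays, were not well above background in Cy3, so their cells there are not measured ratios. The same holds for Col15a1 on SH-42 replicates 1 and 3, and for Col6a2 and Col24a1 on SH-42 replicates 2 and 3. It also holds for Col10a1 on SH-42 replicate 2 and SH-80 replicate 1, and for Col19a1 on SH-42 replicate 3 and SH-80 replicate 1.

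Type IV collagen, the scaffold of basement membranes, varied on other arrays than type I. Col4a1 and Col4a2 encode the chains that assemble together in nearly every basement membrane, those of retinal vessels included, and the genes lie head to head on 1 chromosome. Col4a1 had ratios of -1.15, -0.024 and -2.54 on SH-42 replicates 1, 2 and 3 and of 0.22, -3.08 and -0.0061 on SH-80 replicates 1, 2 and 3. Its Cy3 level lay between 9.53 and 9.69 throughout, whereas Cy5 was 10.69, 9.60 and 12.21 on the SH-42 arrays and 9.46, 12.76 and 9.66 on the SH-80 arrays. On 3 arrays, of both compounds, both channels were thus nearly equal, and on the other 3 Cy5 was higher.

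Col4a2 followed its partner with ratios of -0.62, 0.019 and -1.89 for SH-42 and 0.14, -2.34 and 0.25 for SH-80. Col4a5, a chain found in basement membranes of kidney and eye, had -1.23, 0.053 and -1.19 for SH-42 and 0.17, -1.64 and 0.018 for SH-80. Col4a6, its head-to-head neighbour on the X chromosome, had -1.73, 0.053 and -1.66 for SH-42 and 0.69, -2.04 and 0.66 for SH-80. The same arrays were low in these genes, SH-42 replicates 1 and 3 and SH-80 replicate 2. A second Col4a6 probe gave much flatter ratios, -0.28 to -0.063, and the disagreement was not resolved. Col4a3 and Col4a4, partners of Col4a5 in the mature glomerular and alveolar sheet, were lowest on SH-80 replicate 2, at -1.07 and -1.24, and next lowest on SH-42 replicate 3, at -0.73 each.

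Col18a1 encodes the basement membrane collagen from whose end endostatin, an inhibitor of vessel growth, is cut. Its ratios were -1.59, -0.15 and -0.86 for SH-42 and 0.21, -1.05 and 0.017 for SH-80. All SH-42 arrays were below 0, and SH-80 values overlapped them. Col15a1, its closest relative, was not well above background in Cy3 on the SH-80 arrays, and its Cy5 level was 7.06 to 7.61 over all 6.

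In limma's test 0 of the 8 basement membrane genes passed for either compound, beside 0.602% of all genes for SH-42 and 14.7% for SH-80. At an unadjusted p under 0.05 there were 1 for SH-42, Col18a1, and 0 for SH-80, beside 23.5% and 35.5% of all genes. Col18a1 had an estimate of -0.87 ± 0.32 for SH-42 (SE, n = 3 arrays; limma adjusted p = 0.188). Col4a1 had -1.24 ± 0.73 for SH-42 and -0.95 ± 0.73 for SH-80, with limma adjusted p of 0.334 and 0.388. All 6 type IV chains had a negative estimate for each compound, from -1.24 to -0.18 for SH-42 and from -0.95 to -0.23 for SH-80. By array, the median ratio of these chains was -0.89, 0.0011 and -1.42 for SH-42 and 0.15, -1.84 and 0.088 for SH-80, so that the median lay well below 0 on 3 of the 6 arrays and near or above 0 on the others.

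**Figure D3:**
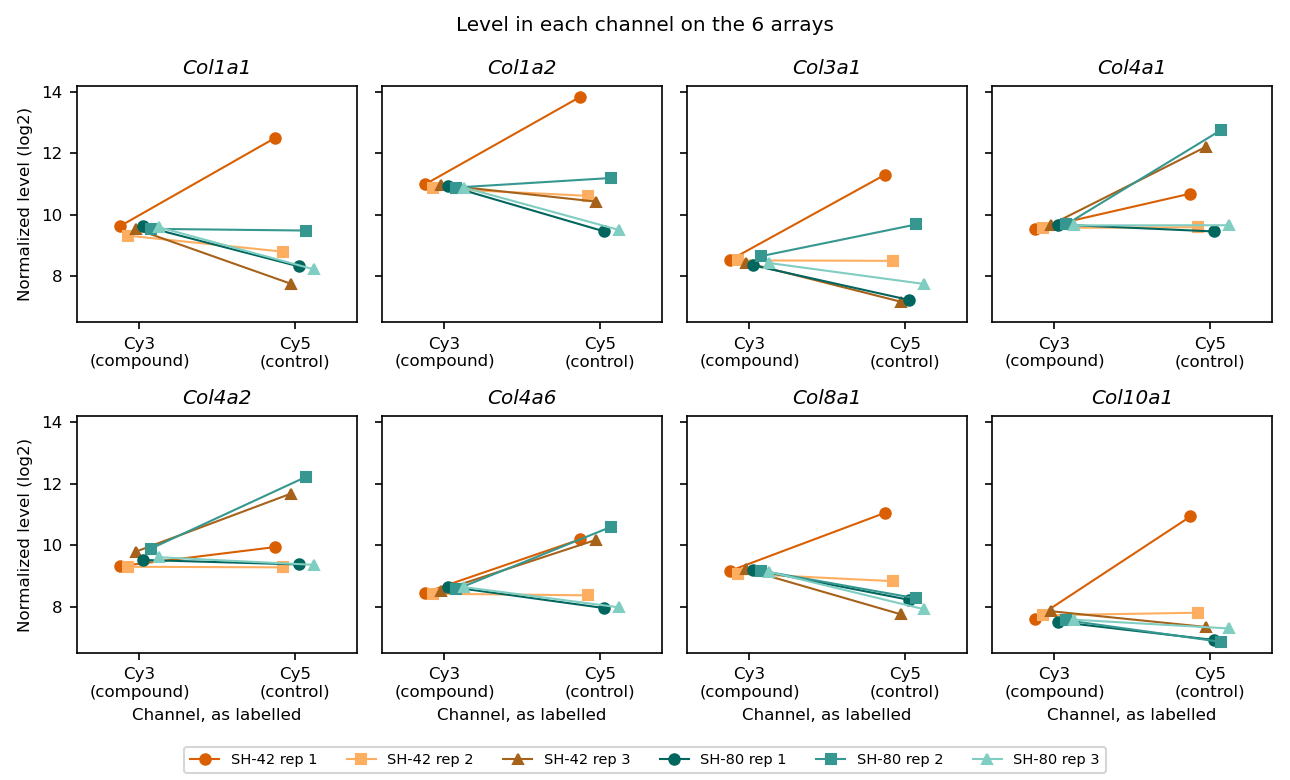
Normalized log2 level in Cy3 (labelled compound) and Cy5 (labelled control) for 8 collagen genes, with 1 line per array, circles, squares and triangles for replicates 1, 2 and 3, and orange to brown for SH-42 and green for SH-80. The Cy3 ends of the lines lie close together in every panel, whereas Cy5 spread from 7.76 to 12.50 in Col1a1 and from 9.46 to 12.76 in Col4a1.

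Among the other collagens, the network-forming types VIII and X were, like type I, lowest on SH-42 replicate 1. They differed from type I on SH-80 replicate 2, where Col1a1 was at 0.055 and Col1a2 at -0.31. Type VIII collagen builds the open lattice of Descemet's membrane behind the cornea and is also found in vessels. Col8a1 had ratios of -1.89, 0.25 and 1.46 for SH-42 and 0.98, 0.90 and 1.22 for SH-80. Col8a2, the second chain, had -1.59, 0.22 and 1.31 for SH-42 and 0.67, 0.61 and 0.95 for SH-80. A dimmer second Col8a2 probe gave -1.06, 0.021 and 0.13 for SH-42 and 0.035, 0.15 and 0.025 for SH-80. The disagreement was not resolved, and the Col8a2 results below are those of the brighter probe. Col10a1, known from hypertrophic cartilage, had -3.32, -0.084 and 0.51 for SH-42 and 0.59, 0.71 and 0.29 for SH-80. Its Cy3 signal was not well above background on SH-42 replicate 2 and SH-80 replicate 1. On these genes SH-42 replicate 1 stood alone at the low end and the SH-80 arrays were close to each other. The estimates for SH-80 were 1.03 ± 0.56 for Col8a1, 0.74 ± 0.48 for Col8a2 and 0.53 ± 0.68 for Col10a1 (SE, n = 3 arrays), and limma's adjusted p was 0.235, 0.315 and 0.615. Without SH-42 replicate 1 the spread was smaller and all of these passed, with limma adjusted p of 0.0156 for Col8a1, 0.0283 for Col8a2 and 0.0242 for Col10a1 and the estimates as before. In that fit 38.8% of all genes passed. A fit with slide as a fixed block turned the sign, to -0.11, -0.25 and -0.58, since it sets each compound at the mean of both slides, although no SH-80 array lay on slide 1.

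The anchoring fibril gene Col7a1, which ties epithelia to the tissue beneath, had 0.70, 0.016 and 0.10 for SH-42 and -0.059, -0.029 and -0.41 for SH-80. The signs of the compounds were opposite on all arrays, but SH-42 replicate 2 and SH-80 replicates 1 and 2 lay near 0. Of the fibril-associated genes, Col9a1, which coats type II fibrils in vitreous and cartilage, had -1.22, 0.21 and -0.81 for SH-42 and -0.45, -0.91 and -0.85 for SH-80. A dimmer second Col9a1 probe ran from -0.27 to -0.017. Col20a1, a fibril-associated collagen, had 0.41, -0.028 and 0.016 for SH-42 and -0.10, -0.040 and -0.24 for SH-80. Col14a1, which binds fibrils through decorin, was not well above background in Cy3 on any array. Its Cy5 level was 9.07, 7.09 and 6.89 for SH-42 and 6.77, 7.56 and 6.85 for SH-80, well above background on 2 of 3 SH-42 arrays and 1 of 3 SH-80 arrays. Over the SH-42 arrays Cy3 was at least 1.41-fold lower than Cy5 (limma adjusted p = 0.338), and without SH-42 replicate 1 no bound remained. A dimmer second Col14a1 probe ran from -0.29 to 0.22. The remaining measured genes, Col6a2, Col9a3, Col16a1, Col17a1, Col23a1, Col25a1 and Col26a1, lay between -1.22 and 0.75.

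For SH-80, 5 of the other collagens passed, which made 5 of all 38 (13.2%) against 14.7% of all genes. Of these, 2 were higher in Cy3, beside 4.62% of all genes, and 3 were lower, beside 10.1%. The share was thus near that of all genes. Median centring without loess gave 2 higher and 5 lower, beside 15.1% of all genes in either direction. Agilent's processed signals gave 1 higher and 3 lower, beside 23.2%. For SH-42 it was 0 of 38, beside 0.602% (0.0581% higher and 0.544% lower), with 4 at an unadjusted p under 0.05 (Col6a4, Col9a2, Col18a1 and Col27a1), beside 23.5%. On all 3 SH-42 arrays 6 of the 38 were above 0 and 8 below 0, beside 19% and 28.2% of all genes. On all 3 SH-80 arrays 8 were above 0 and 13 below 0, beside 29.4% and 38.9%.

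Col6a1 encodes a chain of type VI collagen, the beaded filament around cells. Its ratios were 0.32, -0.29 and -0.24 on the SH-42 arrays and -0.52, -0.61 and -0.84 on the SH-80 arrays. All SH-80 values lay below all SH-42 values. Its Cy3 level lay between 10.69 and 10.80 on all 6 arrays, while Cy5 was 10.37, 11.05 and 11.001 on the SH-42 arrays and 11.32, 11.34 and 11.65 on the SH-80 arrays. Col6a1 was lower in Cy3 than in Cy5 for SH-80, with an estimate of -0.66 ± 0.13 (limma adjusted p = 0.0325), and had one of -0.07 ± 0.13 for SH-42.

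Col6a4, another type VI chain, had ratios of 0.83, 0.11 and 0.75 for SH-42 and 0.87, 0.47 and 0.58 for SH-80. All 6 were above 0. Here Cy3 was the wider channel, at 7.84, 7.28 and 7.71 on the SH-42 arrays and 7.91, 7.53 and 7.67 on the SH-80 arrays, and Cy5 lay between 6.97 and 7.17. It was higher in Cy3 for SH-80, with an estimate of 0.64 ± 0.15 (limma adjusted p = 0.0436), and had one of 0.56 ± 0.15 for SH-42 (limma adjusted p = 0.144).

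Col19a1, a minor collagen of basement membrane zones that in mice is also made by some neurons, had ratios of 0.47, 0.028 and 0.19 for SH-42 and 0.24, 0.69 and 0.51 for SH-80. It too was higher in Cy3 for SH-80, at 0.48 ± 0.11 (limma adjusted p = 0.0435). Its Cy3 signal was dim, well above background on only 2 of 3 arrays of each compound. It was not so on SH-42 replicate 3 and SH-80 replicate 1. Col22a1, a collagen of tissue junctions such as that of muscle and tendon, had -0.084, -0.0013 and -0.27 for SH-42 and -0.28, -0.41 and -0.95 for SH-80. It was lower in Cy3 for SH-80, at -0.55 ± 0.13 (limma adjusted p = 0.0446), with SH-80 replicate 3 apart from the other two. Col9a2, a partner of Col9a1, had -0.41, -0.13 and -0.29 for SH-42 and -0.23, -0.62 and -0.28 for SH-80. It was also lower in Cy3 for SH-80, at -0.38 ± 0.10, just inside the threshold (limma adjusted p = 0.0496).

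These calls changed with the arrays that were in the fit. The count of 5 (13.2%) became 14 of 38 when SH-42 replicate 1 was left out, beside 38.8% of all genes. It became 3 when SH-42 replicate 2 was left out and 1 when SH-42 replicate 3 was, beside 9.41% and 13.3%. It was 0 when SH-80 replicate 1, 2 or 3 was left out, as it was for all genes (0%). In the fit with a fixed slide block 0 collagens and 0 of all genes passed, and Col6a1 then had an estimate of -0.53 (limma adjusted p = 0.382).

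**Figure D4:**
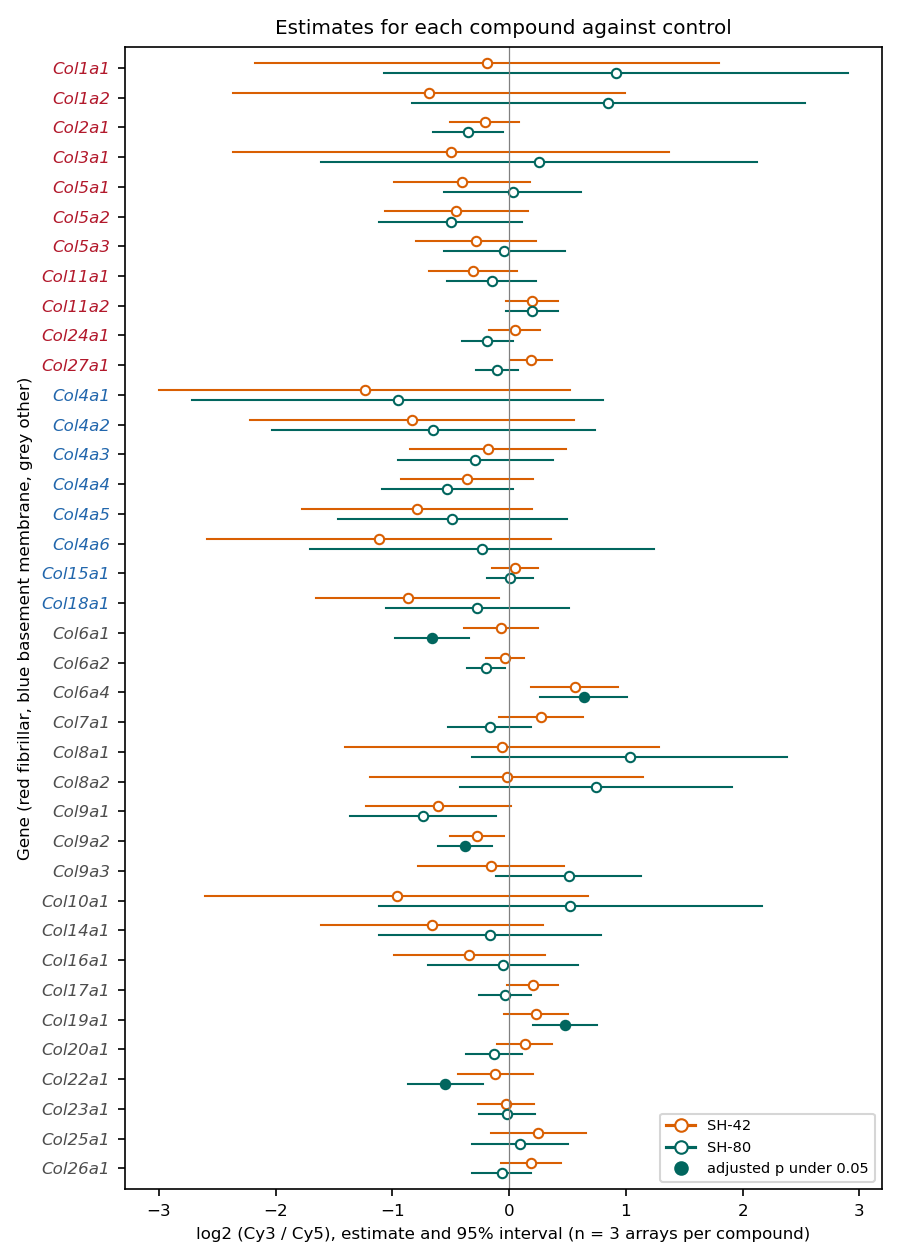
Estimated log2 ratio of Cy3 over Cy5 (points) with its 95% interval (bars) for each of the 38 genes, SH-42 above SH-80 in each row, n = 3 arrays per compound. Filled points are adjusted p under 0.05, which were Col6a1, Col9a2 and Col22a1 below 0 and Col6a4 and Col19a1 above 0, all for SH-80.

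The compounds were compared directly at the same dose and day in 38 pairs of estimates, with p-values adjusted over all 24079 genes. None of the 38 passed for SH-42 minus SH-80 (0 of 38, beside 0% of all genes), with limma's adjusted p from 0.691 to 0.998. At an unadjusted p under 0.05 there were 2, Col6a1 and Col27a1, beside 3.92% of all genes. The difference was 0.59 ± 0.19 for Col6a1 (SE; 95% interval 0.14 to 1.04), and 0.42 on slide 2, which held arrays of both compounds. Col27a1, a fibrillar collagen of cartilage, differed by 0.29 ± 0.11 (95% interval 0.034 to 0.55), and by 0.28 on slide 2. The arrays of the compounds did not overlap for 6 of 38 genes (15.8%), Col6a1, Col6a2, Col7a1, Col20a1, Col22a1 and Col27a1, beside 13.5% of all genes. For Col7a1 and Col27a1 the compounds also lay on opposite sides of 0, as they did for 1.5% of all genes.

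For type I and type III collagen the intervals were wide. Col1a2 had a difference of -1.54 (95% interval -3.91 to 0.84) and of -0.30 on slide 2. For Col1a1, Col3a1 and Col8a1 the sign turned within slide 2. Col1a1 had -1.10 (95% interval -3.91 to 1.71) and 0.87 on slide 2. Col3a1 had -0.75 (95% interval -3.39 to 1.89) and 1.02 on slide 2. Col8a1 had -1.09 (95% interval -3.00 to 0.81) and 0.43 on slide 2. For Col4a1 the difference was -0.29 (95% interval -2.78 to 2.20) and -1.59 on slide 2. Slide 2 holds 1 SH-42 array, so these values carry no error of their own. Differences of severalfold between the compounds in these genes could not be detected.

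Markers of other cell types moved across the arrays too. In Cy3, the summed linear signal of all 8 skeletal muscle markers was 1955 to 2623 over the SH-42 arrays and 2260 to 2715 over the SH-80 arrays. In Cy5 it was 1491 to 18953 for SH-42 and 1461 to 19215 for SH-80, the highest values being those of SH-42 replicate 1 and SH-80 replicate 2. For 10 of 11 fibroblast markers measured, the Cy3 sum was 4401 to 4701 for SH-42 and 4412 to 4483 for SH-80, and the Cy5 sum 4742 to 12163 and 2896 to 11540, again with those 2 arrays highest. For 5 of 6 markers of cornea and surface epithelium, the Cy3 sum was 4072 to 4477 for SH-42 and 3460 to 5044 for SH-80. Their Cy5 sum was 4993 to 10111 for SH-42 and 3992 to 23341 for SH-80, with SH-80 replicate 2 highest. The muscle, fibroblast and surface epithelium lists thus peaked in Cy5 on arrays on which type IV chains were also high there. On SH-42 replicate 3, where Col4a1 was also higher in Cy5 than in Cy3, the Cy5 sum of the muscle markers was 1491, the lowest of the SH-42 arrays.

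Sums of 7 of 8 pericyte and smooth muscle markers were 5529 to 6111 for SH-42 and 5440 to 5463 for SH-80 in Cy3. In Cy5 they were 20344 on SH-42 replicate 1, 4511 to 4895 on the other SH-42 arrays and 3670 to 5361 for SH-80. All 7 endothelial markers were measured and summed to 12516 to 12824 for SH-42 and 12380 to 12574 for SH-80 in Cy3, and to 8922 to 20349 and 9734 to 10942 in Cy5. The capsule of the lens is itself a thick sheet of type IV collagen, and for all 9 lens markers the Cy3 sum was 375099 to 426070 for SH-42 and 414937 to 497595 for SH-80. The Cy5 sum of the lens markers was 100032 to 307522 for SH-42 and 46452 to 290891 for SH-80, lowest on SH-80 replicates 1 and 3. For 7 of 8 markers of pigment epithelium and choroid it was 39023 to 39556 and 39331 to 40071 in Cy3, and 19368 to 36754 and 18159 to 32888 in Cy5. Sums weigh bright members most. On SH-42 replicate 1, where the endothelial Cy5 sum was 20349, the median endothelial ratio was 0.053, with 3 of 7 below 0. On SH-42 replicate 3 the pigment epithelium and choroid markers had median levels of 10.38 in Cy3 and 10.81 in Cy5. Their sums there ran the other way, at 39023 and 19368. Krt12 and Krt14 of surface epithelium, Chad and Fbln1 of fibroblasts, Atp2a1 and Mylpf of muscle and Tek of endothelium were not well above background in Cy3 on any array. In pooled tissue, more cells of a type and more RNA per cell cannot be told apart. The part of these cell types in the collagen levels was not tested.

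**Figure D5:**
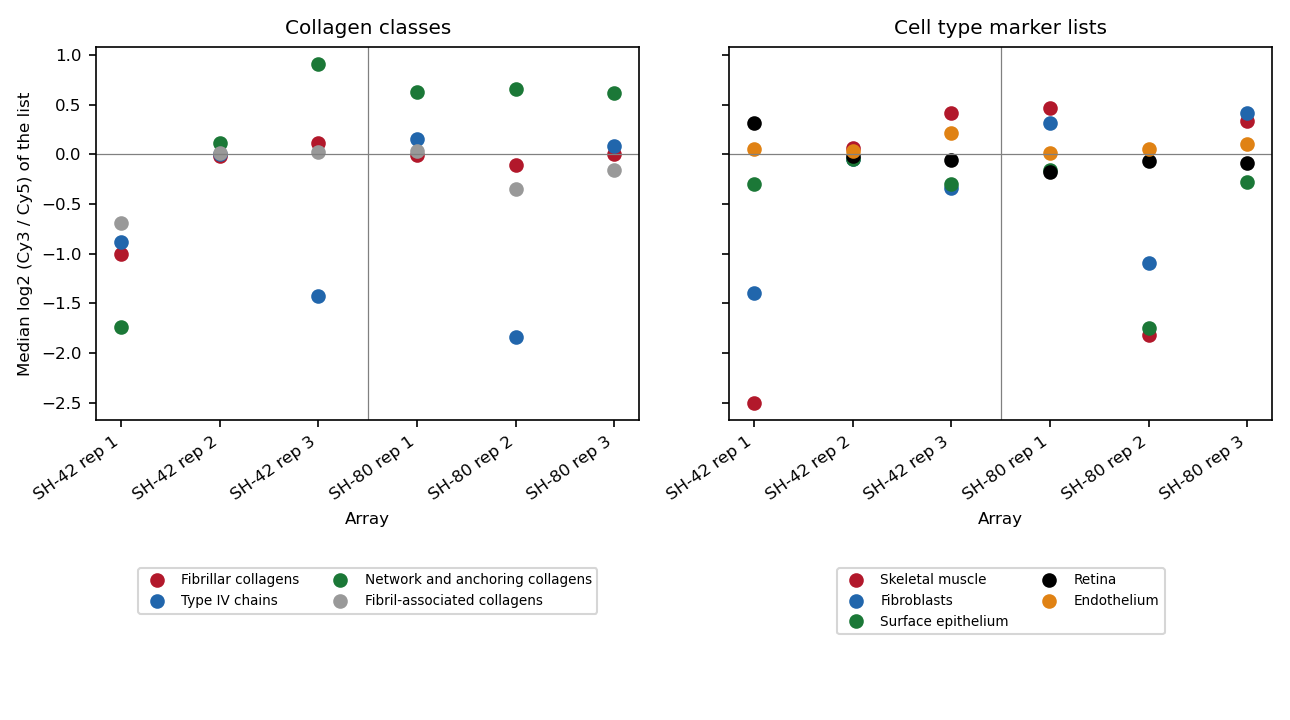
Median log2 ratio of Cy3 over Cy5 on each array for 4 groups of collagens (left) and 5 marker lists (right), SH-42 arrays left of SH-80 arrays and the thin vertical line between them. Type IV chains were low on SH-42 replicates 1 and 3 and SH-80 replicate 2, at -0.89, -1.42 and -1.84, and skeletal muscle markers on SH-42 replicate 1 and SH-80 replicate 2, at -2.501 and -1.82.

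By the ratios over all 6 arrays, the genes most like the median of the fibrillar collagens were Mpzl1, Tor1aip2, Mavs, Tmem174 and Rhog, with Pearson's r of 0.997 to 0.999. Their ratios on SH-42 replicate 1 were -1.15, -0.60, -0.47, -0.56 and -0.94, and they lay between -0.23 and 0.21 elsewhere. For the median of the type IV chains, chosen for this comparison after its values were seen, they were Inhba, Dapl1, Nhsl1, Fbln1 and Pdgfra, with r of 0.994 to 0.996. Fbln1, a matrix protein of basement membranes and elastic fibres, was not well above background in Cy3 on any array, so its r rests on ratios that are only bounds. With 6 points that share arrays and, for the fibrillar median, 1 array far from the rest, r only describes these arrays.

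Genes that make, process and bind collagen were taken from lists by role. For SH-42, 0 members of any of these 7 lists passed, beside 0.602% of all genes. Of 17 genes that modify and fold chains, 0 passed for SH-80, beside 14.7% of all genes. Those of smallest p were Crtap at -0.55 and P3h4 at -0.46 for SH-42, and P3h1, a prolyl hydroxylase, at -0.35 and Plod1, a lysyl hydroxylase, at 0.29 for SH-80. Of 11 of 13 measured genes that trim and cross-link chains, 0 passed, again beside 14.7% of all genes for SH-80. The smallest p were those of Adamts3 (-0.21) and Adamts2 for SH-42 and of Loxl4 (0.57) and Adamts3 (-0.12) for SH-80. Adamts2 was not well above background in Cy3. The median ratio of this last list was -1.22 on SH-42 replicate 1 and -0.080 to 0.40 on the rest. Of 15 of 17 measured partners of fibrils, 2 passed for SH-80, both higher in Cy3, beside 14.7% of all genes in either direction and 4.62% higher. The share was thus near that of all genes in either direction. It was above that of all genes for higher calls alone, where it rests on 2 genes. Enrichment of the list was not tested. Tnc, the matrix protein tenascin C of wounds and development, had 0.050, 0.098 and 0.52 for SH-42 and 0.90, 0.65 and 0.65 for SH-80, with an SH-80 estimate of 0.73 ± 0.11 (limma adjusted p = 0.0256). Comp, which bridges collagen fibrils in cartilage and tendon, had one of 0.47 ± 0.10 (limma adjusted p = 0.0373).

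Basement membrane partners, 16 of 16 measured, gave 0 calls for either compound, beside 0.602% of all genes for SH-42 and 14.7% for SH-80. The smallest p were those of the laminin chain genes Lamc1 (-0.39) and Lamc3 (0.17) for SH-42, and Lama3 (-0.34) and Lamb2 (0.30) for SH-80. Nid1, the nidogen that links laminin to type IV collagen, had ratios of -0.81, 0.18 and -2.68 for SH-42 and 2.13, -3.22 and 2.07 for SH-80, low on the same arrays as Col4a1. Its neighbour in function Nid2 had -1.33, 0.18 and 0.24 for SH-42 and 0.59, -0.27 and 0.90 for SH-80. Nid1 and Nid2 were named after their values were seen. Collagen receptors (6 of 9 measured) and genes of collagen turnover (9 of 13) gave 0 calls, beside the same shares of all genes. Those of smallest p were Ddr1 (-0.38), Itga1 (-0.30), Mmp9 (0.49) and Mmp2 (-0.34) for SH-42, and Itgb1 (0.33), Itga11 (0.079), Timp1 (2.11) and Timp4, not well above background in Cy3, for SH-80. Of the 17 genes of the transforming growth factor beta pathway, which drives collagen transcription in fibroblasts, 2 passed for SH-80, a share no larger than the 14.7% of all genes. These were Smad2, at 0.27 ± 0.07, and Smad4, at -0.34 ± 0.05 (limma adjusted p = 0.0493 and 0.0266).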

How the data were processed

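Pooled mouse retinas were measured on 6 Agilent 4x44K arrays of 2 colours. The authors deposited scanner files with foreground and background intensity per spot and channel and, per the file headers, a log10 ratio of processed red over green. A value table was also deposited, which from its values holds log2 of processed Cy5 over Cy3 less a constant per array: 99.88% or more of values lay within 0.01 of it, with column medians of -0.0754 to -0.0464, so only the direction against control stays unknown. The headers name Feature Extraction 11.0.1.1 and build mm9, and the submitters' processing notes name 9.3.2.1.

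Median signals were corrected by normexp (offset 50), normalized by loess within arrays and fitted with limma 3.58.1 in R 4.3.3, 1 coefficient per compound over 6 arrays, two-sided, adjusted by Benjamini-Hochberg over 24079 genes. Levels per channel, and the SDs, ranges, sums and bounds from them, were taken after a further quantile normalization between arrays. It equalized the distribution of mean log intensity over both channels and left the ratios unchanged. Probes were kept that were well above background on 3 or more arrays in Cy3 or Cy5. Symbols were matched for 26055 of 39429 probes (66.1%) through RefSeq accessions. No array pair held identical values (0 of 15). On simulated data with 24059 genes, the SH-42 comparison recovered 35.9%, 83.3% and 96.9% of genes given log2 changes of 0.5, 1 and 2, with 8 false calls. The changed genes were drawn from all genes. Noise was independent between genes and arrays, so no array stood apart as SH-42 replicate 1 did. These shares do not hold for collagens of wide spread, such as Col1a1 with an SE of 0.82. The number of arrays limits the precision, and the share of spots well above background was 58.3% to 63.1% for Cy3 and 70.9% to 76.7% for Cy5.

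Members and lists were chosen with earlier results of these data known. Values are given for each gene past the threshold and, per class, the 4 brightest and the 4 widest in range, and for lists the members past the threshold or the 2 of smallest p. Like genes are the 5 of highest Pearson's r. Alternatives covered background, normalization, source of values, filter, probes, slide, replicate number, weights and left-out arrays. Figures were drawn with matplotlib 3.10.9.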

Additional observations from a re-analysis of the deposited data

Results flagged for a closer look

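In the channel labelled control (Cy5), SH-42 replicate 1 stood apart from the other 5 arrays for 9 collagens by Dixon's test for a single far value in 6. These were Col1a1 at 12.50, Col5a1 at 9.08 and Col11a1 at 8.71 among fibrillar genes, Col8a1 at 11.05, Col8a2 at 11.31 and Col10a1 at 10.93 among network-forming genes, and Col9a3 at 9.47, Col14a1 at 9.07 and Col16a1 at 10.16 among fibril-associated genes, all as log2 levels. For Col22a1 it was SH-80 replicate 3, at 8.80. The share of all genes flagged in this way was not counted, so the 9 cannot be called particular to collagens. SH-42 replicate 1 had the highest Cy5 level for 16 of 38 collagens (42.1%). It also had the highest for 28.4% of the 24059 genes with values on all arrays. Chance flags about 1 in 20 such groups, and genes on 1 array are not independent. Cy3, with 3 arrays per compound, was not tested in this way.

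Col27a1 and Col7a1 lay above 0 on all SH-42 arrays and below 0 on all SH-80 arrays. The difference, SH-42 minus SH-80, was 0.29 for Col27a1 and 0.44 for Col7a1, and limma's adjusted p was 0.691 for each. Such opposite signs were found in 2 of 38 collagens and in 1.5% of all genes.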

How the results depend on the processing

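The 5 collagens called for SH-80 kept their direction under all alternatives that gave them a value, 19 for Col19a1 and 20 for each of the others. They were past the threshold in 14 of these for Col6a1, 11 for Col6a4, 9 for Col22a1, 8 for Col9a2 and 7 for Col19a1. The count for SH-80 was 5 as reported. It was 1 with normexp at offset 0 and with scale normalization between arrays, beside 11.1% and 2.69% of all genes. It was 1 with a strict filter on dim probes and with slide as a random block, beside 11.5% and 9.84%. With a fixed slide block it was 0, beside 0%. It was 13 with array weights, which gave SH-42 replicate 1 a weight of 0.146, and 15 in a fit of the 3 SH-80 arrays alone, beside 42.3% and 38.1% of all genes. The count for SH-42 was 0 as reported. It was 1 without background correction and with array weights, beside 13.2% of all genes in each. It was 1 with Agilent's processed signals and with the deposited value table, beside 18.0% in each. Median centring without loess gave 6, beside 37.6%. That centring moved the median of all genes to -0.246 for SH-42 and -0.150 for SH-80. Leaving out 1 array gave 0 to 0 for SH-42 and 0 to 14 for SH-80; the arrays behind the extremes are named in the results. An arm left with 2 arrays shares the spread of the other compound's. For SH-42 minus SH-80 the count was 0 under every alternative. Over all genes, the counts of calls ran from 0 to 9062 for SH-42 (145 as reported) and from 0 to 10181 for SH-80 (3542 as reported).

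No pairing by replicate number was seen: deviations from the group means of same-numbered arrays correlated at -0.15, -0.43 and 0.18. Not every array correlated best with its own number. The deviations of 3 arrays from their mean sum to 0, so this check cannot exclude a pairing. With the replicate number as a block, 0 collagens were called for either compound, beside 0% of all genes.

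Of 2221 values of single collagens under alternatives, 50 lost and 40 gained a call, 0 turned a called direction, and 165 (7.43% of all 2221), each uncalled as reported, changed sign. The cause of these changes was not tested. Col5a2 and Col14a1, not well above background in Cy3, have only bounds, and their values here are fitted ones. The labels name no common RNA for Cy3, and whether it held 1 was not tested. If it did, the p-values would leave out that RNA's own spread.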

Other observations

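Genes outside the collagen family that act on the extracellular matrix varied widely in the same channel. The following were named after their values were seen. Thbs1, a matrix protein that activates latent transforming growth factor beta, had ratios of -2.76, 0.49 and 2.68 on SH-42 replicates 1, 2 and 3 and of 2.01, 1.83 and 1.87 on SH-80 replicates 1, 2 and 3. Timp1, an inhibitor of the proteases that cut collagen, had -1.72, 0.97 and 2.32 for SH-42 and 2.17, 1.94 and 2.22 for SH-80. In both genes the SH-80 arrays were close to each other and the SH-42 arrays spanned them, as in Col8a1 and Col8a2. Neither gene passed limma's test for SH-42 or SH-80.

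Decorin, Dcn, the proteoglycan that coats type I fibrils, had -1.71, 0.21 and 1.16 for SH-42 and 1.13, -1.51 and 1.21 for SH-80, low on SH-42 replicate 1 and SH-80 replicate 2, as was Col3a1. Hspg2, which encodes the basement membrane proteoglycan perlecan, had -1.11, 0.19 and -1.17 for SH-42 and 0.55, -1.60 and 0.56 for SH-80, low on the arrays on which Col4a1 was low. Several probes of a gene passed for 10 collagens, and their mean ratios differed in sign for 1 gene in SH-42, Col25a1, and for 4 in SH-80, Col4a4, Col16a1, Col20a1 and Col25a1.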
